A study of Rattus norvegicus with 32 samples.

Results

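Cd81 and Phrf1 are 2 genes whose mean RNA level was lower in rat lung at all 7 sampled times after hemorrhage than in sham lung, and they were selected on those measured differences from sham, which lasted to the final sampling. Their probes were found by gene symbol in the array's probe annotation (Entrez identifiers 25621 and 245925). Each has 1 probe, printed on 2 spots, among 6344 probes of the array. Of these, 6112 had enough values to be tested, standing for 4999 named genes and further unnamed spots. Because the falls after hemorrhage are what chose these genes, the changes against sham and control lung and the order of the times are given as measurements, without tests.

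Cd81 encodes a tetraspanin, a small protein that crosses the plasma membrane several times and gathers partner proteins into membrane microdomains. Its partners include integrins, immunoglobulin-superfamily proteins and the interferon-induced Ifitm proteins, and it is made by many cell types, among them epithelium, macrophages and lymphocytes. Phrf1 encodes a large nuclear protein with a PHD finger, which reads histone marks, and a RING finger, typical of ubiquitin ligases. It has been tied to transforming growth factor beta (TGF-beta) signalling through turnover of the repressor TGIF, to repair of DNA double-strand breaks, and to the tail of RNA polymerase II.

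The lungs came from male Sprague-Dawley rats of 280 to 300 g. Uninstrumented controls (Con, 3 arrays) were neither bled nor handled, sham rats (Sh, 6 arrays) carried 2 arterial catheters and a telemetry device but lost no blood, and bled rats carried the same instruments and had 40% of the estimated blood volume withdrawn. Bled lungs were collected 1, 3, 6, 16, 24, 48 and 72 h later, with 5 arrays at 6 h and 3 at each of the other times. Every lung RNA was hybridised on a spotted 2-colour array against 1 pooled RNA from organs of untreated rats, with 93.1% to 98.8% of spots giving a value per array. The labels do not number the animals, so the errors below measure the spread between arrays, and all sham lungs form 1 group without a matched sham for each time.

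Values are log2 ratios of lung over the organ pool, centred on each array's median, so 0 means the same ratio as the median spot and a difference of 1 means a doubling. The dye given to each RNA is not stated in the sources used here. The direction was read from the lung: the median of 7 type II pneumocyte markers lay between 0.82 and 3.10 on the 30 arrays analysed, on the same side as in a ratio of lung over pool. Sham replicate 2 and 16 h replicate 3 stood apart. Their medians over 26 liver genes were 2.61 and 1.94, against -0.87 to 0.29 on the other 30 arrays, and the type II median of sham replicate 2 was -1.49. Both were left out, which leaves 5 sham arrays and 2 arrays at 16 h, and their values for Cd81 and Phrf1 are given below.

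The sequence just before each gene's start is shown because the genes moved together and lie on the same chromosome. RefSeq places both starts on the plus strand of rat chromosome 1 in GRCr8. The stretches are the 80 bases before the start in the RefSeq promoter table, at chr1:207665217-207665296 for Cd81 and chr1:205763485-205763564 for Phrf1, with capitals marking matches to the searched motifs.
Cd81: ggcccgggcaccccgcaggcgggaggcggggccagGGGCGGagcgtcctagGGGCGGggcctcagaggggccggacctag
Phrf1: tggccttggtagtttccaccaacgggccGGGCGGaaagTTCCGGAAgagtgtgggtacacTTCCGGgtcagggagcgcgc

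Both genes have a GC-rich start. Over the table's window of 300 bases (250 before and 50 after the start), G and C made up 68.7% of the letters at Cd81 and 61.3% at Phrf1, against a median of 51.7% over 33469 rat promoters. The dinucleotide CG occurred 21 times at Cd81 and 23 times at Phrf1, against a median of 7. The GC box letters GGGCGG, searched on both strands like every motif here, began 45 and 29 bases before the Cd81 start and 52 bases before the Phrf1 start, and 33.1% of all promoters held them.

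The ETS core CCGGAA, or its complement TTCCGG, occurred 3 times before Phrf1, at 42, 40 and 20 bases from the start, the first pair overlapping. It did not occur at Cd81, and 15.0% of promoters held it. The TATA letters TATAAA occurred once, beginning 5 bases after the tabulated Cd81 start, and in 14.2% of promoters. The letters CCAAT (37.5% of promoters), CACGTG (6.42%), TGACTCA (4.63%), TGACG (21.2%) and ACGTG (19.3%, some within CACGTG) were in neither window. A match describes letters only. The gene records begin 23 bases (Cd81) and 301 bases (Phrf1) upstream of these starts, so other transcripts start elsewhere.

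In unbled lung Cd81 RNA was above the organ pool on every array. The 3 control lungs read 0.86, 0.92 and 0.65, and the 5 sham lungs read 1.47, 1.31, 0.90, 0.63 and 1.04. The sham replicate left out for its liver signal read 1.22, inside that range. Control and sham overlapped, with means of 0.81 ± 0.14 (SD, n = 3) and 1.07 ± 0.33 (SD, n = 5).

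At 1 h after hemorrhage Cd81 read 0.44, 0.70 and 0.26, and at 3 h it read 0.24, 0.30 and 0.91. At each of these times 2 of the 3 lungs lay below the lowest sham lung and 1 lay within the sham range. At 6 h the 5 lungs read 0.19, -0.38, 0.33, 0.17 and -0.76, all below every sham and every control lung. At 16 h Cd81 read -1.51 and -1.15, and the left-out 16 h replicate read -0.75, also below the sham range.

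At 24 h Cd81 read -0.06, -0.05 and -2.27, so 2 lungs lay near the median spot and 1 far below it. At 48 h the lungs read -0.16, -0.37 and -0.79, and at 72 h they read 0.14, -0.35 and -0.37. No lung from 6 h onward reached the lowest unbled lung.

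Phrf1, the nuclear PHD and RING finger protein, was also above the pool in unbled lung. Its control lungs read 1.11, 0.90 and 0.03 and its sham lungs 0.91, 0.89, 0.28, 0.68 and 0.53, with the left-out sham replicate at 0.38. Means were 0.68 ± 0.58 (SD, n = 3) in control and 0.66 ± 0.26 (SD, n = 5) in sham lung. The third control lung was as low as a 1 h bled lung, so the control range was wider than the sham range.

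At 1 h Phrf1 read 0.68, -0.36 and 0.03, and at 3 h it read -0.45, -0.51 and 0.55. As with Cd81, 1 lung at each time stayed in the sham range and the other 2 fell below it. At 6 h the lungs read -0.32, -0.08, -0.47, -0.27 and -0.85, and at 16 h -0.73 and -0.57, with the left-out replicate at -1.06. Later readings were -0.70, -0.84 and -1.98 at 24 h, -0.48, -1.21 and -0.92 at 48 h, and -0.47, -1.52 and -1.93 at 72 h. From 6 h on, no Phrf1 reading reached the centred pool ratio of 0, the lowest control lung or the lowest sham lung.

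**Figure D1:**
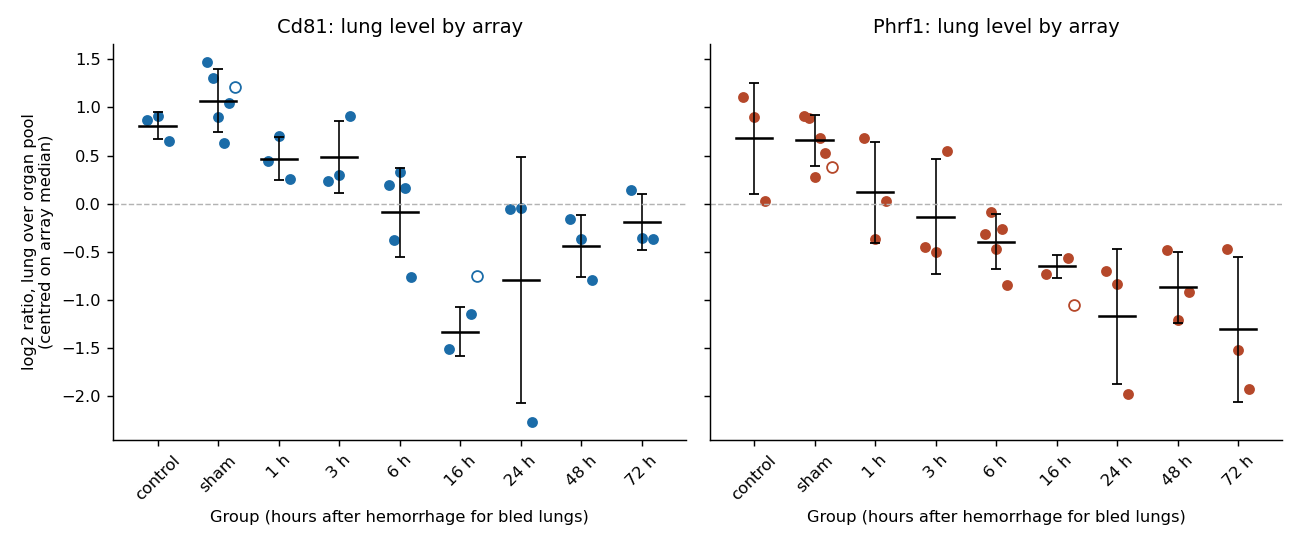
Level of Cd81 and Phrf1 in each array (y axis, log2 ratio of lung over organ pool, centred on the array median) by group (x axis), with group means and SD. Every array from 6 h to 72 h lies below the lowest sham array in both panels, while 1 array at 1 h and 1 at 3 h lie within the sham range.

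For both genes 20 of 22 bled lungs lay below the lowest sham lung. The exceptions for Cd81 were 1 h replicate 2 and 3 h replicate 3, and those for Phrf1 were 1 h replicate 1 and the same 3 h replicate 3. Against the lowest control lung the counts were 20 of 22 for Cd81 and 19 of 22 for Phrf1. Phrf1 was under the centred pool ratio of 0 in 19 of 22 bled lungs and Cd81 in 12 of 22, against 0 of 8 unbled lungs for each. The share of all probes with such counts was not computed. These values also chose the genes, so nothing is read from the counts.

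At 6, 16, 24, 48 and 72 h every bled lung was below every sham lung for both genes. Among all probes tested, the share with such a separation was 2.99% at 6 h, 11.4% at 16 h (where only 2 arrays had to be lower), 6.68% at 24 h, 8.07% at 48 h and 9.18% at 72 h. Neither gene was separated at 1 h or 3 h, where 3.27% and 5.09% of probes were. Separation at all 5 later times was found for 42 probes, 0.687% of those tested, and Cd81 and Phrf1 had the lowest mean change of the 42. Since the lasting fall is what selected them, nothing is read from this rank.

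Against sham, Cd81 was lower by 0.60 ± 0.36 at 1 h and 0.59 ± 0.36 at 3 h on the log2 scale (fitted difference ± SE), which leaves 65.8% and 66.5% of the sham level. The difference was -1.16 ± 0.31 at 6 h and -2.40 ± 0.41 at 16 h, or 44.7% and 18.9% of the sham level. It was then smaller at each later time: -1.86 ± 0.36 at 24 h, -1.51 ± 0.36 at 48 h and -1.27 ± 0.36 at 72 h, the last being 41.6% of sham. The 24 h value rests on 1 lung: without 24 h replicate 3 it is -1.12.

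Phrf1 had another shape. Its difference from sham was -0.54 ± 0.35 at 1 h, -0.79 ± 0.35 at 3 h and -1.06 ± 0.30 at 6 h, close to Cd81 at those times. The 1 h value moves with single lungs, to -0.30 without 1 h replicate 2 and -0.82 without 1 h replicate 1. At 16 h it was -1.31 ± 0.40, or 40.3% of sham, and it was -1.83 ± 0.35 at 24 h and -1.53 ± 0.35 at 48 h. The largest difference was at 72 h, -1.97 ± 0.35, which leaves 25.6% of the sham level. Thus the lowest mean was at 16 h for Cd81 and at the final sampling for Phrf1, a contrast in shape that was not tested. The Phrf1 low point also moves with single lungs. Without 72 h replicate 3 the 72 h value is -1.66, smaller in size than the -1.83 at 24 h. Without 24 h replicate 3 the 24 h value is -1.43.

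Averaged over the 7 times the differences were -1.34 ± 0.25 for Cd81 and -1.29 ± 0.24 for Phrf1, or 39.4% and 40.9% of sham. All 7 time means were below sham for both, as they were for 13.4% of probes. On the same average limma called 208 of 6112 probes (3.40%) at an adjusted p under 0.05, 121 lower (1.98%) and 87 higher (1.42%). Without centring the split was 211 lower and 68 higher. Cd81 and Phrf1 ranked 7 and 9 from the lowest change. The bled lungs were also lower than the uninstrumented controls, by 1.08 ± 0.31 for Cd81 and by 1.31 ± 0.29 for Phrf1. In whole lung, fewer cells that make an RNA and less of that RNA per cell cannot be told apart.

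**Figure D2:**
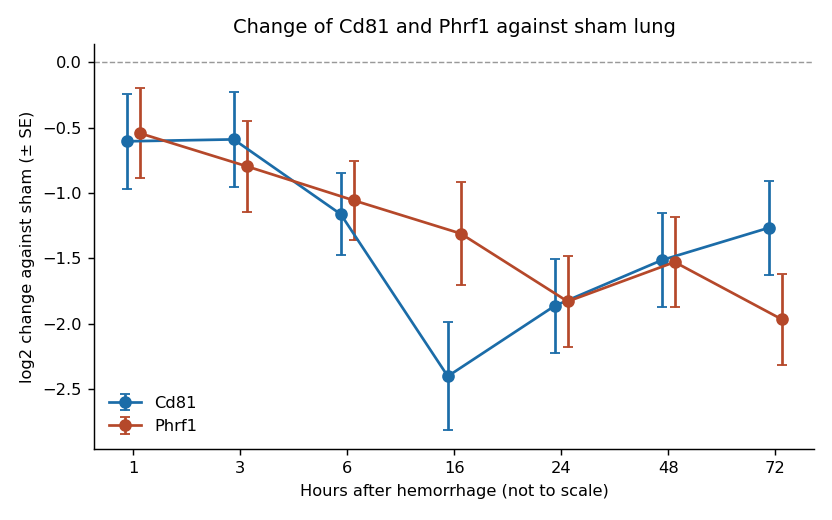
Difference from sham in log2 units (y axis, fitted difference ± SE) at each time after hemorrhage (x axis, hours, not to scale) for Cd81 and Phrf1. Cd81 is lowest at 16 h, at -2.40, and Phrf1 at 72 h, at -1.97.

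Ordered by mean level, Cd81 ran from sham and control through 3 h, 1 h, 6 h, 72 h, 48 h and 24 h down to 16 h. Of the 8 steps between neighbours, 7 were smaller than the larger of their SDs, and only the step from 1 h (0.47 ± 0.22) to 6 h (-0.09 ± 0.46) exceeded it. The 3 h mean was 0.48 ± 0.37, the 16 h mean -1.33 ± 0.26 and the 24 h mean -0.79 ± 1.28. The last 2 groups had means of -0.44 ± 0.32 and -0.19 ± 0.29 (SD, n = 3 each).

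Phrf1 ran from control and sham through 1 h, 3 h, 6 h, 16 h, 48 h and 24 h down to 72 h. Again 7 of 8 steps were within the larger SD, the exception being the step from sham to 1 h (0.12 ± 0.53). The means were -0.14 ± 0.60 at 3 h, -0.40 ± 0.29 at 6 h, -0.65 ± 0.12 at 16 h, -1.17 ± 0.70 at 24 h, -0.87 ± 0.37 at 48 h and -1.31 ± 0.75 at 72 h. Apart from those steps, neighbours in either order did not differ beyond their spread.

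Early lungs (1, 3 and 6 h, 11 arrays) and late lungs (24, 48 and 72 h, 9 arrays) overlapped for both genes. Cd81 ranged from -0.76 to 0.91 early, with a median of 0.26, and from -2.27 to 0.14 late, with a median of -0.35. Phrf1 ranged from -0.85 to 0.68 early (median -0.32) and from -1.98 to -0.47 late (median -0.92). Early minus late was 0.76 ± 0.23 for Cd81 and 0.98 ± 0.22 for Phrf1, and 9 of 11 early lungs lay above the highest late lung for each. Without 24 h replicate 3 the Cd81 difference was 0.52. Early and late lungs differed for many probes: 1503 of 6112 had an unadjusted limma p under 0.05 in this comparison. The share of all probes with a count such as 9 of 11 was not computed.

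Sham against control asks what instrumentation alone did. The sham values also chose the 2 genes, so this difference too is given without a test. Sham minus control was 0.26 ± 0.36 for Cd81 and -0.02 ± 0.35 for Phrf1, each difference smaller than its SE, and the groups overlapped for both. Over the whole array limma called 0 of 6112 probes in this comparison (0%), with 291 at an unadjusted p under 0.05.

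The paired spots bear on how well each level was measured. Over 32 arrays the spots of Cd81 differed by a median of 0.16 log2 units and correlated at 0.915, and those of Phrf1 differed by 0.11 and correlated at 0.986. The widest gap was 1.76, for Cd81 on 3 h replicate 2. That array had the lowest agreement between paired spots of the series (correlation 0.623), and the next widest Cd81 gap was 0.66. Taking only the first or the last spot gave a 3 h Cd81 difference from sham of -0.27 or -0.91. The smallest deposited ratios were 0.18 for Cd81 and 0.22 for Phrf1, above the 0.05 at which the deposited steps of 0.01 become coarse. Whether other transcripts hybridise to either probe was not tested.

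Cd81 and Phrf1 also varied together among lungs of the same group. After each group's mean was removed, the 30 arrays gave Pearson's r = 0.634 (permutation p = 0.00253, two-sided, 100000 permutations) and Spearman's rho = 0.603 (permutation p = 0.00371). Without 24 h replicates 2 and 3, the arrays farthest from the Cd81 median, r was 0.548 and rho 0.535. The group means were not taken again. The remaining 24 h lung therefore kept deviations of 0.73 (Cd81) and 0.47 (Phrf1) that the removed lungs helped set. This was the 1 relation tested, so no adjustment over relations applies. The genes were chosen on these same arrays and share their centring. Shuffling within groups does not account for variation shared across an array, so the small p does not show a relation particular to this pair. Within groups Cd81 correlated with 4838 other probes at -0.38 to 0.44 (5th to 95th percentile), where Phrf1 ranked 34. Phrf1 correlated with other probes at -0.57 to 0.58, a wider range in which Cd81 ranked 141.

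**Figure D3:**
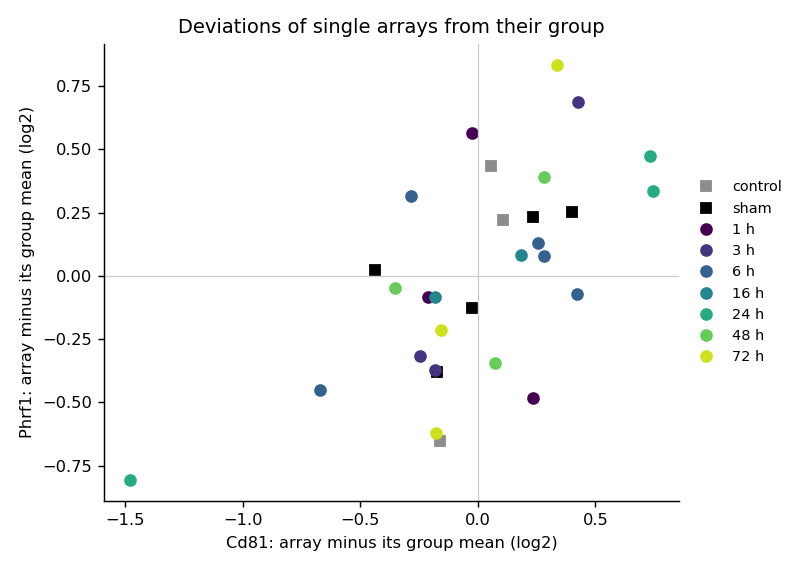
Deviation of each of 30 arrays from its group mean for Cd81 (x axis) and Phrf1 (y axis), in log2 units. The arrays low for Cd81 tend to be low for Phrf1 (r = 0.634), and 24 h replicate 3 is the lowest point for Cd81.

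The probes with the pattern most like Cd81, by Pearson correlation over 30 arrays, were Ywhae (0.888), Serinc5 (0.859), Fabp4 (0.837), St13 (0.826) and Pnoc (0.809). Ywhae encodes a 14-3-3 adaptor protein, Serinc5 a multipass membrane protein, Fabp4 a fatty acid carrier of fat cells and endothelium, St13 a co-chaperone and Pnoc the precursor of the peptide nociceptin. Their mean differences from sham over the 7 times were -0.99 ± 0.25, -0.84 ± 0.24, -0.86 ± 0.20, -0.53 ± 0.15 and -0.76 ± 0.16, all smaller in size than that of Cd81. The correlation of the 9 group means was 0.964 for St13 and 0.959 for Fabp4, and within groups it was 0.888 for Ywhae and 0.495 for St13. St13 was thus like Cd81 mainly from group to group. The within-group value of Ywhae leans on the 24 h lungs, where the SD was 1.36 for Ywhae and 1.28 for Cd81. In the other groups the SDs reached at most 0.53 and 0.46. The value without the 24 h lungs was not computed.

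The probes most like Phrf1 were Avpr1b (0.927), Reps1 (0.927), Treh (0.894), Rab3c (0.892) and Chrm3 (0.888). Avpr1b encodes a vasopressin receptor, Reps1 an endocytosis adaptor, Treh the enzyme that splits trehalose, Rab3c a small GTPase of secretory vesicles and Chrm3 a muscarinic acetylcholine receptor. They differed from sham by -1.12 ± 0.21, -0.83 ± 0.22, -0.80 ± 0.18, -0.94 ± 0.18 and -1.07 ± 0.20. None of the 5 was among the 5 most like Cd81. The genes of both sets were named for their likeness, so no test is attached to their changes. Over the 30 arrays Cd81 and Phrf1 correlated at 0.798, which made Phrf1 the 9th probe by likeness to Cd81 and Cd81 the 49th by likeness to Phrf1, a rank partly set by the shared fall that selected them.

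**Figure D4:**
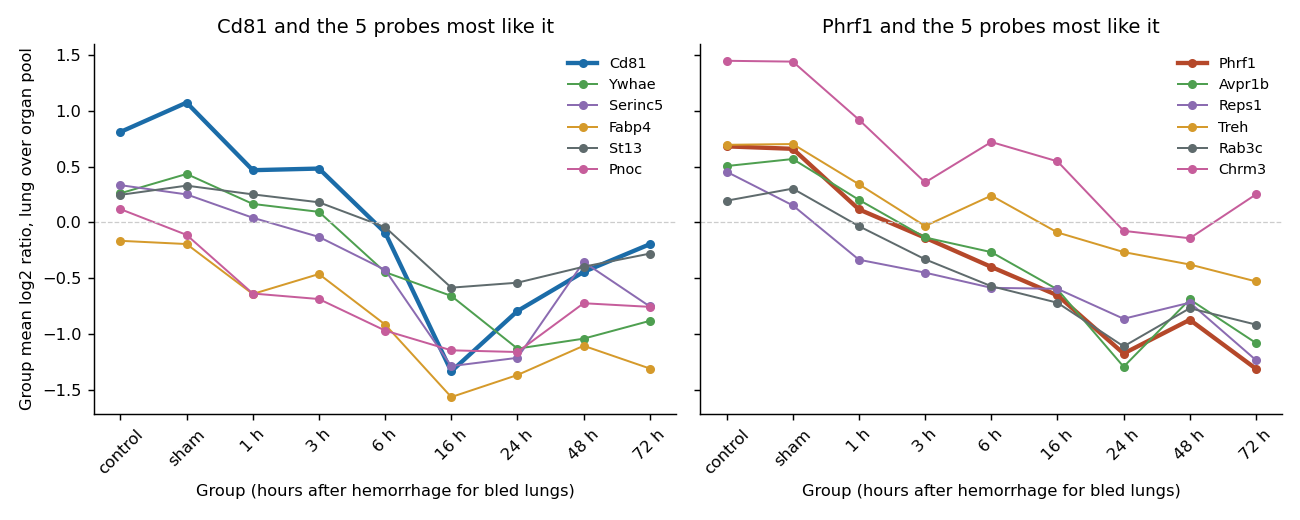
Group mean level (y axis, log2 ratio of lung over organ pool) of Cd81 and of Phrf1 with the 5 probes most like each, over control, sham and the 7 times after hemorrhage (x axis). The 5 probes like Cd81 have their lowest mean at 16 h or 24 h, and the 5 like Phrf1 have their lowest means at 24, 48 and 72 h.

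Other tetraspanins were measured as well. Of 31 listed, 8 besides Cd81 were measured, and limma called 0 of 8 on the mean of the 7 times against sham, beside 3.40% of all probes. At that share a list this short holds few calls or none, so nothing is read from the 0. An unadjusted p under 0.05 was reached by 2 of the 8, beside 23.0% of all probes, a share to set against each such count below. Their median difference was 0.08, beside 0.03 over all probes. Cd151, an integrin-binding tetraspanin, differed by -0.55 ± 0.19 (limma adjusted p = 0.0949), and Cd53, a leukocyte tetraspanin, by 0.56 ± 0.30 (limma adjusted p = 0.255). Whether Cd81 differs from these relatives was not tested.

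Genes for known Cd81 partners were counted in the same way. Among 19 of 30 measured, limma called 0, beside 3.40% of all probes, so nothing is read from this 0 either. An unadjusted p under 0.05 was reached by 2 of the 19, and their median was 0.05. The largest differences were 0.85 ± 0.66 for the receptor Egfr (limma adjusted p = 0.460) and -0.59 ± 0.30 for moesin, Msn, which links membrane proteins to actin (limma adjusted p = 0.227). The integrin subunit Itgb1 differed by -0.14 ± 0.18, the adhesion receptor Icam1 by -0.57 ± 0.33, and Ifitm2 and Ifitm3 by 0.31 ± 0.24 and 0.20 ± 0.22, none of them called.

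On the Phrf1 side, the TGF-beta list had 24 of 37 genes measured, with a median of -0.08. limma called 1 higher and 0 lower, beside 1.42% and 1.98% of all probes. An unadjusted p under 0.05 was reached by 6 of the 24. Acvr1, a type I receptor for activins and bone morphogenetic proteins, rose by 0.90 ± 0.17 (limma adjusted p = 0.00681). Smad4, the shared signal transducer, differed by 0.70 ± 0.23 (limma adjusted p = 0.0873), and the ligand Tgfb1 by -0.22 ± 0.17 (limma adjusted p = 0.451).

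A DNA repair list, drawn up for double-strand breaks but also holding genes of other repair paths, had 17 of 36 genes measured. The median was 0.06, and 1 gene was called in each direction, beside 1.42% higher and 1.98% lower of all probes. An unadjusted p under 0.05 was reached by 6 of the 17. Xrcc5, the Ku80 subunit that holds broken ends for joining, rose by 0.94 ± 0.26 (limma adjusted p = 0.0431), and Mre11, the nuclease of the end-processing complex, fell by 0.71 ± 0.18 (limma adjusted p = 0.0306). Both calls depend on the sham arrays: limma's adjusted p is 0.128 for Xrcc5 without sham replicate 6 and 0.106 for Mre11 without sham replicate 3. Of 15 measured genes of RNA polymerase II and splicing (48 listed) limma called 0, beside 3.40% of all probes. An unadjusted p under 0.05 was reached by 5 of the 15, and the median was -0.17. The largest differences were -0.63 ± 0.23 for the polymerase subunit Polr2f (limma adjusted p = 0.103) and -0.52 ± 0.22 for the splicing protein gene Snrpn (limma adjusted p = 0.152).

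Both genes sit in 1 stretch of rat chromosome 1, with 61 annotated genes between them in the RefSeq order, 47 of these protein coding. The array measured 19 of the 61. limma called 0 higher and 1 lower against sham, beside 1.42% and 1.98% of all probes. Of the 19, 13 lay below 0, beside 47.3% of all probes, and the median was -0.22 beside 0.03. The called gene was Muc2, which encodes a secreted gel-forming mucin. It fell by 0.95 ± 0.17 (limma adjusted p = 0.00541). The highest value in the stretch was 0.36 ± 0.17 for Mrpl23, a mitochondrial ribosomal protein (limma adjusted p = 0.220).

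Among the nearest measured genes beside Phrf1, Hras, a small GTPase, differed by -0.65 ± 0.21 (limma adjusted p = 0.0740) and Cdhr5, a microvillar cadherin, by -0.42 ± 0.21 (limma adjusted p = 0.217). Beside Cd81, Ascl2, a transcription factor, differed by -0.41 ± 0.17 (limma adjusted p = 0.154) and the potassium channel Kcnq1 by 0.03 ± 0.18 (limma adjusted p = 0.946). None of these 4 neighbours fell as far as Cd81 or Phrf1, a comparison not tested.

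**Figure D5:**
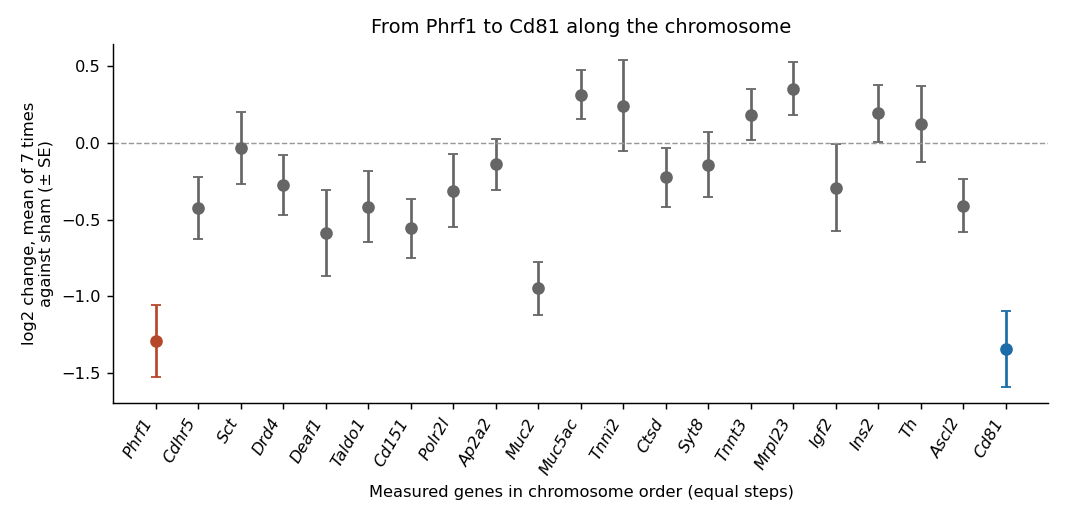
Mean difference from sham over the 7 times in log2 units (y axis, ± SE) for the measured genes of the stretch that holds Phrf1 and Cd81, in RefSeq gene order (x axis). Cd81 at -1.34 and Phrf1 at -1.29 are the lowest, followed by Muc2 at -0.95.

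Cell type markers were compared with sham in the same way, and their part in the falls of Cd81 and Phrf1 was not tested. Their counts are to be set against all probes, of which 3.40% were called and 47.3% lay below 0. All 7 measured type II pneumocyte markers lay below 0 against sham, with a median of -0.50 and 2 at an unadjusted p under 0.05. Of these limma called 1, surfactant protein Sftpb, which fell by 0.90 ± 0.22 (limma adjusted p = 0.0241), a call lost with the 2 liver-signal arrays included (-0.09, limma adjusted p = 0.939). The per-array type II median was 1.76 to 2.39 in control, 2.22 to 3.10 in sham and 0.82 to 2.58 in bled lung. At 16 h, where the Cd81 mean was lowest, it was 2.11 to 2.19. At 72 h, where the Phrf1 mean was lowest, it was 0.82 to 1.29.

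All 5 type I pneumocyte markers also lay below 0, with a median of -0.43 and 2 at an unadjusted p under 0.05. Their per-array medians were 0.77 to 1.72 in control, 1.06 to 2.38 in sham and 0.86 to 1.88 in bled lung. Akap5, a kinase anchor, was the 1 called, at -0.61 ± 0.16 (limma adjusted p = 0.0335), a call lost with all 32 arrays (-0.15, limma adjusted p = 0.831). Among 12 fibroblast and matrix genes (median -0.11) limma called 1, with 4 at an unadjusted p under 0.05. Fibronectin, Fn1, fell by 0.86 ± 0.24 (limma adjusted p = 0.0465). The per-array median of the 12 was 0.46 to 0.87 in control, 0.11 to 0.71 in sham and -0.31 to 0.96 in bled lung. At 16 h it was -0.07 to 0.04 (2 arrays), while every other bled group overlapped sham. Among single probes, 11.4% lay below every sham array at 16 h.

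Club and ciliated cell markers had a median of -0.25, with 0 of 6 called by limma and 2 at an unadjusted p under 0.05. The club cell secretory protein Scgb1a1 differed by -1.11 ± 0.37 (limma adjusted p = 0.0868) and the monooxygenase Fmo2 by -0.75 ± 0.26 (limma adjusted p = 0.0995). Endothelial markers had a median of -0.11, with 0 of 5 called by limma and 2 at an unadjusted p under 0.05. Plvap, of capillary fenestrae, differed by -0.75 ± 0.22 (limma adjusted p = 0.0547) and the VEGF receptor Kdr by 0.57 ± 0.17 (limma adjusted p = 0.0540). Smooth muscle markers had a median of -0.02, with 0 of 4 called by limma and 1 at an unadjusted p under 0.05. Des and Cnn1, contractile cell proteins, differed by -0.35 ± 0.12 and 0.27 ± 0.18.

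Of the leukocyte lists, neutrophil markers had a median of 0.35, with 1 of 7 called by limma and 3 at an unadjusted p under 0.05. The 1 called was the collagenase Mmp8, which rose by 1.93 ± 0.47 (limma adjusted p = 0.0263). With all 32 arrays its rise was 1.55 (limma adjusted p = 0.0722). The per-array neutrophil median was 0.04 to 0.67 in sham. It reached 1.75 in 1 bled lung, 24 h replicate 1, while 24 h replicates 2 and 3, at 0.54 and 0.43, lay in the sham range. For 4 macrophage and monocyte markers the median was 0.07, with 0 called by limma and 1 at an unadjusted p under 0.05. Fcgr2a, an Fc receptor, differed by 0.77 ± 0.23 (limma adjusted p = 0.0593) and the complement gene C1qb by -0.23 ± 0.16. A second Fcgr2a probe, not the one counted, rose by 0.86 (limma adjusted p = 0.0166, and 0.0641 without sham replicate 6).

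The 2 B cell markers, Cd79b and Cd74, differed by -0.21 ± 0.17 and 0.09 ± 0.17, with 0 called by limma and 0 at an unadjusted p under 0.05. For 10 T and NK cell markers the median was 0.07, with 0 called by limma and 2 at an unadjusted p under 0.05. Klrd1, an NK receptor, differed by 0.76 ± 0.22 (limma adjusted p = 0.0519) and Cd4 by -0.44 ± 0.19. The per-array T and NK median was -0.37 to 0.04 in sham (5 arrays) and 0.09 to 0.51 at 72 h (3 arrays). No share over all probes is given for such a separation above sham, and a link to the Phrf1 level at 72 h was not tested.

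Among 5 erythroid genes (median -0.25) 3 lay below 0 and 2 reached an unadjusted p under 0.05. The 1 called was Rhag, a red cell membrane protein, which rose by 0.91 ± 0.25 (limma adjusted p = 0.0431). The per-array erythroid median was -0.77 to -0.29 in sham. It was above every sham lung at 16 h (0.04 to 0.15, 2 arrays), 48 h (-0.07 to -0.01) and 72 h (0.03 to 0.37). It overlapped sham at 6 h (-0.99 to -0.25) and 24 h (-0.34 to 0.11), when Cd81 and Phrf1 were also below every sham lung. No share over all probes is given for separation above sham. The listed genes did not move together over the 7 times: Gata1 differed by -0.75 ± 0.25, Alas2 by -0.30 ± 0.23, Slc4a1 by -0.25 ± 0.18 and Epor by 0.47 ± 0.33, none of them called. The median therefore does not stand for a rise of the whole list. Of 26 liver genes (median 0.17) limma called 0, with 6 at an unadjusted p under 0.05, and Alb and Fgg, which encode plasma proteins, differed by 0.84 ± 0.54 and 0.84 ± 0.35.

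These marker calls were lost without 1 sham array: limma's adjusted p is 0.125 for Sftpb, 0.132 for Akap5, 0.0997 for Mmp8 and 0.144 for Rhag without sham replicate 1, and 0.161 for Fn1 without sham replicate 3.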

How the data were processed

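The authors deposited log2 ratios per spot for 32 arrays of 13056 spots. Per the labels, 2 rounds of TRI Reagent extraction preceded labelling, and the pool is said to hold 10 organs, 9 of them named. No source used here gives the normalization, scanner, dyes or centring, and a shift of all genes on an array could have been removed. Deposited array medians were -0.38 to 0.06. Linear ratios were all within 0.001 of a multiple of 0.01.

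Each array was centred on its median and spots of a probe were averaged. Symbols came from the platform annotation, and 5006 of 5029 Entrez identifiers were found in RefSeq. Samples were grouped by title. limma 3.58.1 in R 4.3.3 (lmFit, eBayes, two-sided) was fitted over 30 arrays and 9 groups to 6112 probes (those measured by 2 or more arrays in each group), with Benjamini-Hochberg adjustment over all of them and calls at 0.05. Replicate spread within groups sets the errors. Fits were tested on simulated data. The members and the gene lists were chosen with earlier results of these data known. Tests of early against late lungs, among times and of sham against control had been planned, and no p is given for them because the genes were chosen on their sham and late values. Named genes were the members, the 5 probes most like each by Pearson correlation, up to 5 measured neighbours on each side, and from each list up to 4 called genes or, with none called, the 2 with the largest change. The list genes Itgb1, Icam1, Ifitm2, Ifitm3, Smad4, Tgfb1 and the second Fcgr2a probe were added after their values were seen. The deviations of same-numbered arrays from their group means correlated at a median of -0.00 over 94 pairs, beside 0.01 over 302 pairs with different numbers. A median cannot show whether some numbers pair lungs, and the main fit did not use the numbers.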

Additional observations from a re-analysis of the deposited data

How the results depend on the processing

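The fits were repeated without each of 30 arrays in turn and under 9 other settings. The mean difference from sham over the 7 times kept its direction in all of them: -1.45 to -1.24 for Cd81 and -1.38 to -1.23 for Phrf1 with 1 array left out, and -1.60 to -1.26 and -1.46 to -1.26 under the other settings. Early minus late lay at 0.52 to 0.89 for Cd81 and 0.84 to 1.12 for Phrf1 with 1 array left out. Sham minus control lay at 0.16 to 0.53 for Cd81 and -0.35 to 0.19 for Phrf1 over all of them. With the replicate number as a block, although same-numbered arrays did not deviate together at the median, the mean differences were -1.60 and -1.46.

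Counts of called probes depended on the processing. For the mean of the 7 times, the 121 lower probes became 46 with the replicate block, 211 without centring and 518 with array weights, and the 87 higher became 66, 68 and 420. With 1 array left out they ranged from 40 to 222 and from 24 to 152. Array weights also called 3 higher and 1 lower between sham and control.

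Of the called list genes, Muc2 and Acvr1 kept their calls in all 39 repeats. With 1 array left out, Xrcc5 kept its call in 17 of 30, Rhag in 18, Fn1 in 11, Akap5 in 25, Mre11 and Mmp8 in 26 each, Sftpb in 27 and the second Fcgr2a probe in 28. Xrcc5, Mre11, Rhag, Fn1, Akap5, Mmp8, Sftpb and Fcgr2a were not called with the replicate block. The number of arrays, 2 to 5 a group, limits the precision.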
